A study of Mus musculus with 28 samples.

Results

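Wild type cells of the mouse embryonic stem cell (mESC) lines CJ7 and CCE were compared gene by gene. The contrast rests on 5 of the 28 libraries of the series, chosen by line and genotype: 2 labelled wild type CJ7 and 3 labelled EloA+/+ CCE. Per the labels, both lines carried a wild type genotype and were at passage 15 to 26. Titles call the second line CCE and the cell line field calls it CCE28. Both grew on inactivated mouse fibroblast feeders in serum medium with LIF, PD0325901 (1 µM) and CHIR99021 (3 µM), and a short plating step removed feeders before lysis. RNA was depleted of ribosomal RNA and made into TruSeq total RNA libraries. The other 9 mESC libraries, 2 each of CJ7 Eed null, CJ7 EloA K754M and CJ7 EloA K754R cells and 3 of CCE EloA null cells, and 4 libraries of wild type embryoid bodies (EBs, at day 5 after LIF withdrawal, 2 per line) were used beside the contrast. Levels are the RPKM values the authors deposited, and log2 differences are CJ7 minus CCE on log2(RPKM + 0.5), with the standard error of a limma fit (n = 2 and 3).

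Embryonic stem cells are derived from the inner cell mass of the blastocyst and keep the ability to form all tissues of the embryo. LIF acts through Stat3, PD0325901 inhibits the MEK kinases that activate ERK, and CHIR99021 inhibits Gsk3 and so stabilises beta-catenin; together they hold cells in the naive state, in which Pou5f1, Sox2 and Nanog work with naive factors such as Klf4, Esrrb and Tfcp2l1. Lines differ in the mouse strain they came from, in chromosome changes acquired in culture and in growth history, and the labels name none of these for CJ7 or CCE.

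Pluripotency markers were high in all 5 libraries, and most but not all markers of other lineages were low. Nanog was 486 and 683 RPKM in CJ7 and 605, 565 and 588 in CCE, and Sox2 was 84.9 and 88.8 against 90.2, 90.4 and 88.3. Mesp1 (mesoderm), Pax6 (neural) and Afp (endoderm) were at most 0.119 RPKM, and Cdx2 (trophoblast) at most 0.229. Exceptions were Eomes (2.26 to 3.05 RPKM) and the neural genes Tubb3 (26.8 to 49.5 RPKM) and Nes, which is described with the adhesion genes. Feeder fibroblast markers were present in both lines: the summed RPKM of 32 markers was 517 and 713 in CJ7 and 957, 323 and 236 in CCE. CCE replicate 1 thus stood above the other CCE libraries, the lines overlapped, and none of the 32 markers passed the test. Estimated depth differed with the line: about 11040000 and 13580000 reads in CJ7 against 46350000, 43650000 and 42870000 in CCE. These estimates are rough, since only 23.47% to 28.01% of low values lay within 0.02 of a whole read at them. Line, depth and library preparation cannot be told apart in these 5 libraries, nor over all 14 mESC libraries, where depth also differed with the line. The labels do not say that replicates are separate cultures, so p-values measure the spread between libraries, which may be technical.

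Of 18625 genes tested, 5627 differed between the lines (30.2% of those tested, limma adjusted p below 0.05). CJ7 was higher in 3128 (16.8%) and lower in 2499 (13.4%), and the median difference over all genes tested was 0.06. The excess of higher calls depended on the scaling: there were 2190 higher and 2467 lower after correction for GC content and exon length, and 2695 higher and 2786 lower with upper quartile scaling. The median difference fell with GC content, from 0.31 in genes of up to 40% GC to -0.15 in genes above 60%. At least 2-fold differences numbered 992 higher and 1026 lower. Leaving out 1 library at a time, 2152 genes were called every time (993 higher, 1159 lower), and the total fell to 2625 without CCE replicate 2 and to 2652 without CCE replicate 3. Among 12983 protein coding genes other than ribosomal protein, histone and Gm-numbered genes, picked out by name, 3548 were called (27.3%; 2236 or 17.2% higher and 1312 or 10.1% lower), of which 1083 were called whichever library was left out (662 higher and 421 lower). A check that needs no test is whether the 8 CJ7 mESC libraries of all genotypes overlap the 6 CCE mESC libraries. They did not overlap for 2646 genes (14.2%; 1358 or 7.29% higher and 1288 or 6.92% lower; among the protein coding genes 1544 or 11.9%, 1003 or 7.73% higher and 541 or 4.17% lower), and 2100 of those were also called between the wild types. Depth differed with the line in these libraries too, so the check does not separate line from depth or library preparation. Counts for gene lists in the paragraphs that follow stand against 16.8% higher and 13.4% lower, and medians against 0.06, over all genes tested; list members beyond the naming rule, such as Cdh1, Nupr1 and Hormad2, were chosen after their values were seen.

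Many of the largest differences lay in genes for small RNAs and in pseudogenes, whose reads can belong to many near-identical copies. A U4 spliceosomal RNA gene (ENSMUSG00000075779, of several that share the name) was 15170 and 11990 RPKM in CJ7 and 3.84, 3.10 and 6.48 in CCE. In the opposite direction, the pseudogene Gm7536 was at 0.179 and 0 in CJ7 against 351, 388 and 371 in CCE. Some Gm-numbered genes outside these classes were also far lower in CJ7, such as Gm10736 (log2 difference -10.5) and Gm9846 (-8.9). Small RNA genes made up 37.9% and 33.6% of all RPKM in CJ7 libraries and 19.05% to 21.15% in CCE. Pseudogenes made up 5.52% and 5.80% in CJ7 and 12.2% to 12.4% in CCE. Of 2046 pseudogenes tested 48.9% were called, 368 higher and 632 lower. Genes that encode ribosomal proteins, which have many pseudogene copies, went the same way: 64 of 83 were lower in CJ7 and 2 higher, with a median of -0.76. Rpsa was 21.3 and 16.5 RPKM against 199, 207 and 219 (log2 difference -3.44 ± 0.12, limma adjusted p = 4.36e-05). In wild type EBs, whose table was made separately, Rpsa was 1140 and 1227 RPKM in CJ7 and 1408 and 1080 in CCE, and the median over 82 ribosomal protein genes was 0.17. How reads with several matching places were counted is not given in the sources used here, and its part in these differences was not tested. Gapdh (7.39 and 10.2 against 19.3, 20.8 and 19.08 RPKM) and Hspa8 (45.9 and 59.9 against 130, 117 and 118) also have many pseudogene copies. Both were lower in CJ7, and their values are uncertain for the same reason. These are examples, and how many genes with such copies were higher or lower was not counted. Such genes are not removed by the selection on names and are among the 12983 protein coding genes.

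Among the 12983 protein coding genes, the X-linked genes Scml2, Usp26 and Efhc2 were more than 4-fold higher in CJ7. These genes and the others described next were chosen after their values were seen, among the largest differences with no overlap over all 14 mESC libraries. Scml2, which encodes a Polycomb protein of the germline, was 15.9 and 18.2 RPKM in CJ7 and 1.34, 1.66 and 1.54 in CCE (3.12 ± 0.13, adjusted p = 8.69e-05). The edited CJ7 lines lay between 7.13 and 59.97 RPKM and the EloA null CCE libraries between 0.389 and 0.528. Usp26, a deubiquitinase gene of the testis, was 5.14 and 9.35 against 0.381, 0.809 and 0.513, and Efhc2 was 27.1 and 23.9 against 3.91, 4.53 and 4.52. Aspa, on chromosome 11, encodes the enzyme that splits N-acetylaspartate and was 4.99 and 7.71 against 0.138, 0.0855 and 0.0622 RPKM (3.497 ± 0.221); with 1 CJ7 library left out it was too low in the rest to be tested. The glutamate transporter gene Slc1a1 was 7.94 and 7.003 against 0.768, 1.24 and 1.01, and Gpa33, which encodes a surface antigen of intestinal epithelium, was 21.99 and 19.7 against 3.71, 2.58 and 2.86. On the lower side, Bdh2, a dehydrogenase gene of ketone and siderophore metabolism, was 0.428 and 0.811 against 4.89, 4.49 and 4.31 RPKM (-2.20 ± 0.19). Kbtbd11 was 3.60 and 3.26 against 12.1, 15.6 and 17.6, and Pgpep1l was 0.190 and 0.695 against 7.08, 5.89 and 6.55. As these genes were chosen for no overlap, in none of the lower ones did a CJ7 library of any genotype reach the level of a CCE library.

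The naive network was present in both lines, but its members were not at the same level. Of 23 naive genes tested 7 were higher in CJ7, 8 lower and 8 not called, with a median of -0.10 and a mean of 0.02. Klf4, a Stat3 target and reprogramming factor, was 14.3 and 16.1 RPKM in CJ7 and 41.6, 40.7 and 43.4 in CCE (-1.44 ± 0.08, limma adjusted p = 0.000258). The 6 edited CJ7 libraries reached 17.2 to 30.4 RPKM of Klf4 and the EloA null CCE libraries 30.6 to 32.9, so the lines did not overlap over the 14 libraries. Zfp42 (Rex1), a marker of the naive state, was 282 and 441 against 754.3, 610 and 579 (-0.87 ± 0.22, adjusted p = 0.0341). Its call was lost without CJ7 replicate 1 (-0.54, adjusted p = 0.0873) and without any 1 CCE library (adjusted p from 0.0732 to 0.094). Esrrb, which encodes an orphan receptor, was 56.9 and 52.8 against 75.0, 68.4 and 71.6 (-0.38 ± 0.07), called except without CCE replicate 2 or 3 (adjusted p = 0.052 and 0.0716).

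**Figure D1:**
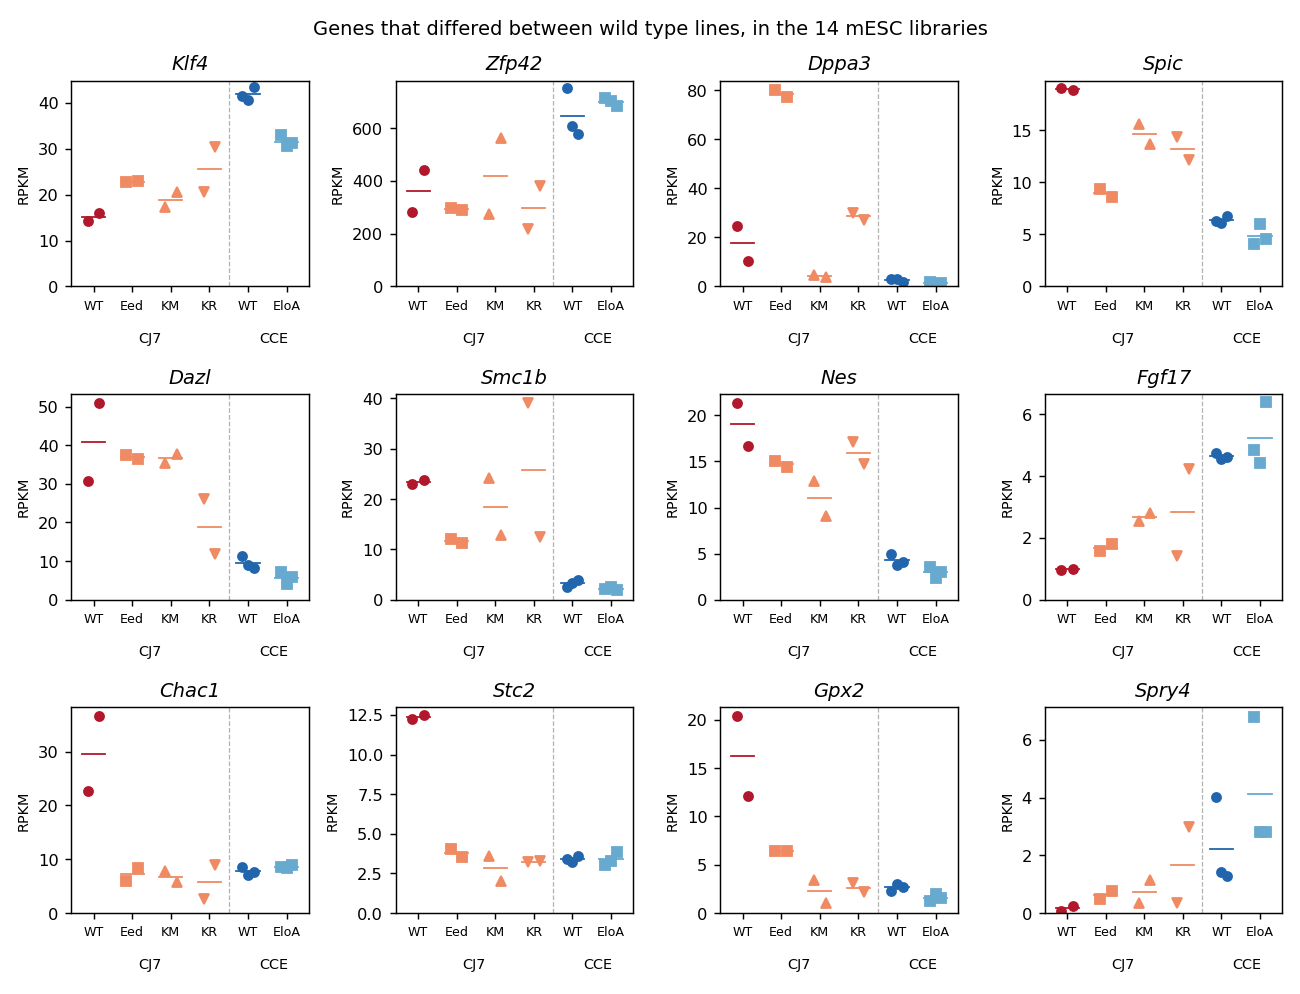
RPKM (y axis, linear, from 0) of 12 genes in each of the 14 mESC libraries, with CJ7 genotypes left of the dashed line (WT wild type, Eed Eed null, KM K754M, KR K754R) and CCE genotypes right of it (WT wild type, EloA EloA null). Each point is a library and each bar a group mean; Klf4 and Zfp42 were lower and Smc1b, Dazl and Nes higher in every CJ7 library than in any CCE library, while Chac1 and Stc2 were high in the wild type CJ7 libraries and not in the other CJ7 libraries.

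Other naive genes were higher in CJ7. Dppa3 (Stella), a maternal factor that protects DNA methylation in the zygote, was 24.6 and 10.4 RPKM against 2.96, 3.01 and 1.65 (2.48 ± 0.41, adjusted p = 0.00957). The CJ7 libraries differed from each other by more than 2-fold, and each was above every CCE library. Spic, which encodes a PU.1-related factor, was 19.04 and 18.9 against 6.32, 6.14 and 6.76 (1.496 ± 0.088, adjusted p = 0.000283). Prdm14, which keeps de novo methyltransferases low in naive cells, was 28.5 and 27.5 against 19.6, 15.8 and 17.6 (0.66 ± 0.11, adjusted p = 0.00944). Dppa3, Spic and Prdm14 were called whichever library was left out, and none overlapped between lines over the 14 libraries. The surface gene Pecam1, on chromosome 11, was 70.5 and 74.0 against 28.7, 34.9 and 33.5 (1.15 ± 0.10), and Il6st, the signalling subunit of the LIF receptor, was 29.1 and 29.4 against 19.9, 16.7 and 15.4 (0.75 ± 0.12). Its partner Lifr was 11.7 and 11.4 against 16.8, 15.3 and 14.7 (-0.42 ± 0.09), a call lost without CCE replicate 2 or 3 (adjusted p = 0.0837 and 0.0632). Nanog (-0.02 ± 0.15, adjusted p = 0.924), Klf2 (-0.22 ± 0.08, 0.0861) and Stat3 (0.08 ± 0.13, 0.665) did not pass the test.

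Factors shared by naive and primed cells leaned to lower values in CJ7: 1 of 20 was higher and 7 lower, with a median of -0.43. Dppa4, a chromatin protein of early embryos, was 20.6 and 31.0 RPKM against 57.0, 49.3 and 51.6 (-1.04 ± 0.18, limma adjusted p = 0.0112). Lin28a, which blocks maturation of let-7 microRNAs, was 10.7 and 12.04 against 24.5, 21.3 and 20.99 (-0.94 ± 0.11, adjusted p = 0.00298). Both of these calls were kept whichever library was left out, unlike the other 6 of this list. Pou5f1 (Oct4) was 280 and 300 against 377, 355 and 367 (-0.34 ± 0.07, adjusted p = 0.023), and its call was lost without CJ7 replicate 1 (adjusted p = 0.0672), without any 1 CCE library (0.0631 to 0.0994) and under quantile normalization. Sox2 (-0.04 ± 0.06, adjusted p = 0.62) and Tdgf1, the Nodal co-receptor (0.00 ± 0.14, 0.996), did not differ by more than their error.

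**Figure D2:**
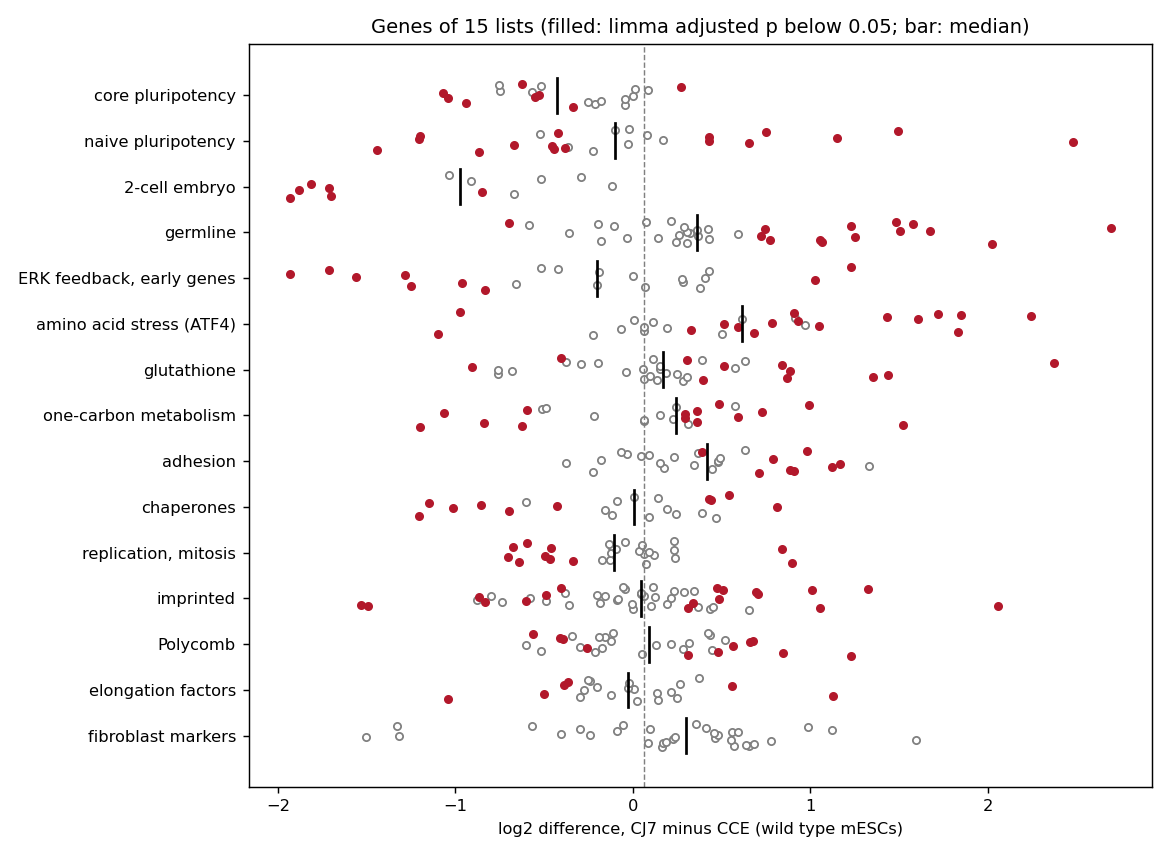
Log2 difference in RPKM, CJ7 minus CCE wild type mESCs (x axis), of every tested gene in 15 lists (y axis). Filled points passed the limma test, open points did not, bars are list medians and the dashed line is the median of all genes tested (0.06); the germline, amino acid stress and adhesion medians lie at 0.36, 0.61 and 0.42, while no fibroblast marker is filled.

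Of 18 genes for DNA methyltransferases, Tet enzymes and their partners 3 were higher in CJ7 and 4 lower, near the shares over all genes, and 1 call held whichever library was left out. Dnmt3b, the de novo methyltransferase that rises as cells leave the naive state, was 6.78 and 10.6 RPKM against 23.1, 16.5 and 16.6 (-1.08 ± 0.23, limma adjusted p = 0.0215). Dnmt3a, the other de novo enzyme, was 5.56 and 4.98 against 3.18, 3.47 and 3.72 (0.55 ± 0.13, adjusted p = 0.0271). Both calls were lost when single libraries were left out: Dnmt3b without CJ7 replicate 1 or any 1 CCE library (adjusted p from 0.0551 to 0.0649), Dnmt3a without the same libraries (0.0653 to 0.105). Mbd3, a subunit of the NuRD repressor, was 9.70 and 9.46 against 18.1, 16.4 and 16.5 (-0.79 ± 0.09, adjusted p = 0.00252) and was called each time. Dnmt1, the maintenance enzyme, was 110 and 106 against 94.3, 93.4 and 94.0 and just missed the threshold (0.20 ± 0.06, adjusted p = 0.0562).

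Several readouts of ERK signalling, the pathway that PD0325901 blocks, were lower in wild type CJ7. Of 21 early response and feedback genes 7 were lower and 2 higher, and 2 of the 7 lower calls held whichever library was left out. The summed RPKM of 24 such genes was 173 and 198 in wild type CJ7 and 241.5 to 320.5 in wild type CCE. In edited CJ7 it was 178 to 336 and in EloA null CCE 284 to 366, so the lines overlapped. The list median was -0.20 between wild types, -0.03 between edited CJ7 and EloA null CCE, and 0.23 between wild type EBs. Etv4, an ETS factor induced by FGF signalling, was 3.86 and 7.03 RPKM against 21.4, 16.9 and 16.9 (-1.71 ± 0.25, limma adjusted p = 0.00686). Dusp6, the ERK phosphatase, was 2.23 and 3.26 against 12.8, 7.85 and 7.06 (-1.56 ± 0.29, adjusted p = 0.0136), a call lost without CJ7 replicate 1 (adjusted p = 0.055). The ERK inhibitor gene Spry4 was 0.0591 and 0.256 against 4.01, 1.42 and 1.27 (-1.93 ± 0.45, adjusted p = 0.0268), lost without CJ7 replicate 1 (0.102) or CCE replicate 2 (0.0584). In all 3 genes CCE replicate 1, the library with the most fibroblast RNA, was the highest of the 5; the part of feeder RNA in these values was not tested. The 2 genes higher in CJ7 are also stress genes: Dusp1 was 12.4 and 10.2 against 5.23, 4.78 and 5.79 (1.03 ± 0.14), and Atf3 was 17.6 and 18.6 against 6.97, 6.78 and 8.63 (1.23 ± 0.13). Fgf17, a ligand made in response to FGF signalling, was 0.966 and 1.00 against 4.73, 4.56 and 4.62 (-1.79 ± 0.12, adjusted p = 0.000527), and every CJ7 library lay below every CCE library.

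Genes of the 2-cell embryo, which a small share of stem cells switch on at a time, were nearly silent in wild type CJ7. The summed RPKM of 23 such genes was 2.06 and 3.81 in CJ7 and 23.2, 9.885 and 15.7 in CCE. Of the 23, 12 passed the filter on low values and 6 of those were lower and none higher; a gene near 0 in CJ7 could pass through its CCE level alone, so this count has a direction set in part by the filter. Zscan4c, a telomere factor that marks this state, was 0 and 0.0917 RPKM in CJ7 and 2.26, 0.884 and 1.85 in CCE (-1.93 ± 0.33, limma adjusted p = 0.0107). Gm8300 was 0 and 0.395 against 2.54, 1.55 and 1.89, and Gm2016 was 0.0981 and 0.200 against 2.501, 1.22 and 1.78. These genes have near-identical neighbours, so single values are uncertain. The other CJ7 libraries ranged from 0.0661 to 10.4 RPKM of Zscan4c and the EloA null CCE libraries from 3.26 to 13.3, so the lines overlapped once other genotypes were included. In bulk RNA, fewer cells of a type and less RNA per cell cannot be told apart.

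Germline genes were mostly higher in CJ7 where they differed, also in cells of other genotypes. Of 34 tested 13 were higher in CJ7 and 1 lower (median 0.36), 10 of the 13 were called whichever library was left out, and for 10 genes all 8 CJ7 libraries lay above all 6 CCE libraries. Over all genes tested 7.29% lay apart in that way. The summed RPKM of 37 germline genes was 644 and 750 in wild type CJ7 and 617, 583 and 602 in wild type CCE. It was 541 in K754R replicate 2, so by this sum the lines overlapped over all genotypes. Smc1b, the meiotic cohesin subunit, was 23.04 and 23.8 RPKM against 2.48, 3.39 and 3.84 (2.70 ± 0.18, limma adjusted p = 0.000407). The other CJ7 libraries held 11.2 to 39.1 RPKM and the EloA null CCE libraries 1.92 to 2.49. Dazl, an RNA-binding regulator of germ cells, was 30.6 and 51.0 against 11.2, 8.90 and 8.15 (2.02 ± 0.24, adjusted p = 0.0036). Dmc1, the meiotic recombinase, was 4.88 and 4.06 against 0.931, 1.59 and 1.01 (1.58 ± 0.22, adjusted p = 0.00555). Hormad2, a protein of unsynapsed meiotic chromosome axes encoded on chromosome 11, was 13.2 and 14.9 against 4.38, 4.90 and 4.56 (1.504 ± 0.108). The synaptonemal complex genes Sycp1 (1.07 ± 0.16) and Syce2 (0.78 ± 0.11) and the piRNA pathway genes Asz1 (1.25 ± 0.18) and Tdrd12 (0.72 ± 0.07) were higher as well. The gene that was lower, Rpl10l, encodes a testis copy of a ribosomal protein: it was 101 and 123 against 181, 179 and 183 (-0.70 ± 0.10). Like other ribosomal protein genes it can share reads with copies, which was not measured.

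The start site windows of Smc1b and Dmc1 are printed because many germline genes are held silent outside the germline through E2F6 sites. They run from 250 bases before to 50 after the start, come from RefSeq on GRCm38.p6 and lie on the minus strand at chr15:85131908-85132207 and chr15:79605060-79605359. Capitals mark the letters TCCCGC, searched on both strands (GCGGGA).
Smc1b: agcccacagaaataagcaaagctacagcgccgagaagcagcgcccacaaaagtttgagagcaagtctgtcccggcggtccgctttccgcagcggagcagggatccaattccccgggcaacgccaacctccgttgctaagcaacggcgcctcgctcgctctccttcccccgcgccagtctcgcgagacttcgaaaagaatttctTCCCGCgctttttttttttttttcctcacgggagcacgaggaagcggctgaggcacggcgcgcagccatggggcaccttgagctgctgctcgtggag
Dmc1: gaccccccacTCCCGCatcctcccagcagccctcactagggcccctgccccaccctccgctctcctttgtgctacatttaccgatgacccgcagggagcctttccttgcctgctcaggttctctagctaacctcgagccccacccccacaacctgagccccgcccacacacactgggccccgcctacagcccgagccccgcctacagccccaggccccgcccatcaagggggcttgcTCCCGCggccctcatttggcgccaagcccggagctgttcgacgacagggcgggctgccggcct
The windows shown were taken from those that hold a match; the Smc1b window holds 1 match and the Dmc1 window 2. Of 31 germline genes with a window 16 (51.6%) hold these letters, of the 12 with a window that were higher in CJ7 6 (50%) do, while 20% of all 32851 windows and 22% of the 27025 genes with a window do. The share among CJ7-high germline genes was thus about that of the germline list. A match describes letters and is no measure of binding.

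Genes that the transcription factor Atf4 induces when amino acids run short were raised in the wild type CJ7 libraries. Of 27 tested 14 were higher and 2 lower, with a median of 0.61, and 8 of the 14 were called whichever library was left out. Chac1, a glutathione-degrading enzyme and a classic Atf4 target, was 22.7 and 36.6 RPKM against 8.50, 7.09 and 7.70 (1.83 ± 0.21, limma adjusted p = 0.00309). Nupr1, a stress-induced chromatin protein, was 97.7 and 70.7 against 26.3, 27.0 and 27.7 (1.61 ± 0.14, adjusted p = 0.00124). The hormone gene Fgf21 was 2.63 and 1.58 against 0.0696, 0 and 0.0502 (2.24 ± 0.23; too low to be tested with 1 CJ7 library left out), and Inhbe, an activin subunit, was 1.61 and 2.03 against 0.121, 0.0536 and 0.262 (1.85 ± 0.21). Stc2, a secreted glycoprotein gene on chromosome 11, was 12.3 and 12.5 against 3.38, 3.25 and 3.59 (1.72 ± 0.10), and the lipoprotein receptor gene Vldlr was 5.60 and 4.51 against 1.76, 1.51 and 1.40 (1.43 ± 0.16). The amino acid transporter subunits Slc3a2 (121 and 108 against 62.8, 67.1 and 68.6) and Slc7a5 (47.3 and 51.1 against 35.2, 33.3 and 34.4) were higher too. Atf4 RNA itself did not pass the test (127 and 142 against 163, 151 and 158; -0.23, adjusted p = 0.0804); the factor is controlled largely by translation. The 2 lower genes were Atf5 (-1.10 ± 0.13) and Cbs (-0.97 ± 0.14).

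CJ7 cells of other genotypes did not have these higher levels. The summed RPKM of the 27 genes was 1528 and 1573 in wild type CJ7, 880 to 1132 in the 6 edited CJ7 libraries, 1197 to 1267 in wild type CCE and 1213 to 1297 in EloA null CCE. Chac1 was 2.60 to 8.88 RPKM in the edited CJ7 libraries and Stc2 2.04 to 4.04, overlapping the EloA null CCE libraries (8.41 to 8.86 and 3.04 to 3.85). Between edited CJ7 and EloA null CCE cells the median of the list was -0.24, and between wild type EBs it was -0.11. For 1 of the 27 genes all 8 CJ7 libraries lay above all 6 CCE libraries, against 7.29% of all genes tested.

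Windows of 3 of these genes are shown because Atf4 binds with C/EBP partners to a composite element of the letters TGATGNAA (TTNCATCA on the other strand), set in capitals. The RefSeq windows on GRCm38.p6 are chr2:119350992-119351291 on the plus strand for Chac1, and chr7:45615441-45615740 for Fgf21 and chr10:127351799-127352098 for Inhbe on the minus strand.
Chac1: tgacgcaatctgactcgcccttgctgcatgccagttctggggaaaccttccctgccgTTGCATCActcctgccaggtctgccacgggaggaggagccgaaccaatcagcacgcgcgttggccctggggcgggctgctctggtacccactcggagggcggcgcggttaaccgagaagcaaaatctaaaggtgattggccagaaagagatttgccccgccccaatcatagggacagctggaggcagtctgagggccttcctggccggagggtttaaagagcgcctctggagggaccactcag
Fgf21: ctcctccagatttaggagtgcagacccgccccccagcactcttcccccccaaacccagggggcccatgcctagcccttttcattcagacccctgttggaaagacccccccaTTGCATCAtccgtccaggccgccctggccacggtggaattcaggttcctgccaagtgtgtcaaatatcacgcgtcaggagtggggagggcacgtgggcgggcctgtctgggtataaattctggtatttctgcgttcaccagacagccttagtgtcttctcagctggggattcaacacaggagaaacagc
Inhbe: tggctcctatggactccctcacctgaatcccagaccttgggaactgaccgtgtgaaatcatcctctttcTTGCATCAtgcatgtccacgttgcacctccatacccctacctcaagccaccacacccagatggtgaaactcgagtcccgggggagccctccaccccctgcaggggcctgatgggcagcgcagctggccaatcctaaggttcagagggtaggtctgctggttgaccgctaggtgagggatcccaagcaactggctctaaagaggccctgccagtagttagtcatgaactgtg
The windows shown were taken from those that hold a match, so its presence was fixed by the choice. Each holds 1, read as TTGCATCA. Among Atf4 list genes with a window 8 of 23 (34.8%) hold the element, and among those higher in CJ7 6 of 11 (54.5%), against 3.97% of all windows and 4.51% of all genes with a window. The list was drawn up from known targets, so a share above that of all genes is part of how it was chosen.

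Redox and one-carbon enzymes also differed. Of 32 glutathione and NRF2 target genes 9 were higher in CJ7 and 2 lower, and 4 of the 9 were called whichever library was left out. For 2 of the 32 all 8 CJ7 libraries lay above all 6 CCE libraries, against 7.29% of all genes tested. The list median was 0.17 between wild types and -0.04 between edited CJ7 and EloA null CCE. Gpx2, a glutathione peroxidase, was 20.3 and 12.1 RPKM against 2.26, 3.00 and 2.69 (2.37 ± 0.24, limma adjusted p = 0.00204), with 1.04 to 6.45 RPKM in the edited CJ7 libraries. Gsr, the glutathione reductase, was 171 and 162 against 87.6, 92.9 and 97.6 (0.84 ± 0.07, adjusted p = 0.00131). Of 23 genes of threonine, glycine and folate metabolism 9 were higher and 4 lower, and 3 of the 9 were called whichever library was left out. None of the 23 was higher in all CJ7 than in all CCE libraries. The list median was 0.25 between wild types and 0.02 between edited CJ7 and EloA null CCE. The summed RPKM of 24 such genes was 985.5 and 1048 in wild type CJ7 and 993, 915 and 946 in wild type CCE, so the lines overlapped. Gldc, the glycine decarboxylase that stem cells use to feed the folate pool, was 77.4 and 67.4 against 22.5, 26.0 and 26.2 (1.52 ± 0.11, adjusted p = 0.000518). The edited CJ7 libraries (25.6 to 39.7 RPKM) were also above the EloA null CCE ones (11.1 to 11.6), but not all were above every wild type CCE library. Its partner in the glycine cleavage system, Gcsh, went the other way: 84.4 and 120 against 192, 172 and 178 (-0.84 ± 0.16), lost without CCE replicate 1 or 3 (adjusted p = 0.0521 and 0.0517). Mthfd2, the mitochondrial folate enzyme and also an Atf4 target, was 75.2 and 81.5 against 55.3, 48.4 and 51.5 (0.59 ± 0.09).

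Adhesion genes were higher in CJ7 where they differed: 8 of 26 were called and none was lower, with a median of 0.42. For none of the 26 did all 8 CJ7 libraries lie above all 6 CCE libraries, against 7.29% of all genes tested. Cdh1 (E-cadherin), the main junction protein of stem cell colonies, was 137 and 126 RPKM against 79.4, 79.8 and 81.2 (0.71 ± 0.07, limma adjusted p = 0.00161). Cdh3 (P-cadherin) was 5.21 and 5.39 against 2.40, 2.75 and 2.63 (0.91 ± 0.12), and Ocln (occludin), a tight junction protein, was 10.9 and 8.18 against 3.11, 4.07 and 4.80 (1.17 ± 0.21). These 3 were called whichever library was left out. Itgb1, the integrin beta-1 chain that fibroblasts also make, was 187 and 195 against 141, 80.4 and 79.3 (0.98 ± 0.26, adjusted p = 0.0405), with the fibroblast-rich CCE replicate 1 above the other CCE libraries. The Itgb1 call was lost without either CJ7 library (adjusted p = 0.111 and 0.104) and without CCE replicate 2 or 3 (0.112 and 0.107). Nes (nestin), an intermediate filament of neural progenitors that also occurs in mesenchyme, was 21.4 and 16.7 against 5.01, 3.77 and 4.05 (2.03 ± 0.17, adjusted p = 0.000942), and all CJ7 libraries (9.13 RPKM or more in the edited ones) lay above all CCE libraries.

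Polycomb and elongation genes matter here because the edited lines target Eed, a core subunit of PRC2, and Elongin A. Neither targeted gene differed between the wild types: Eed was 105 and 119 RPKM against 122, 101 and 99.9 (0.06 ± 0.12, limma adjusted p = 0.759), and Tceb3 (Elongin A) was 10.7 and 12.2 against 11.8, 11.2 and 10.7 (0.03 ± 0.10, 0.867). Of 30 Polycomb genes 7 were higher in CJ7 and 4 lower. Suz12, a core PRC2 subunit encoded on chromosome 11, was 79.9 and 78.0 against 42.8, 43.4 and 44.9 (0.85 ± 0.06, adjusted p = 0.00067). Rnf2 (Ring1b), the ubiquitin ligase of PRC1, was 65.8 and 70.2 against 47.9, 44.6 and 45.01 (0.56 ± 0.07, adjusted p = 0.00432), with no overlap over the 14 libraries. Suz12 and Rnf2 were called whichever library was left out; the other 9 Polycomb calls were not. The PRC2 methyltransferase gene Ezh2 was 19.11 and 18.8 against 14.7, 15.0 and 15.9 (0.31 ± 0.08, adjusted p = 0.033), a call lost without any 1 of the 5 libraries (adjusted p from 0.0511 to 0.131). Of 21 elongation genes 2 were higher and 4 lower. Tceb2 (Elongin B), the partner of Elongin C, was 81.5 and 85.7 against 177, 175 and 166 (-1.04 ± 0.07, adjusted p = 0.000406). Ell2, a subunit of the super elongation complex, was 21.5 and 21.3 against 8.43, 9.87 and 10.3 (1.13 ± 0.11, adjusted p = 0.00176).

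Imprinted genes are expressed from 1 parental copy. Of 49 tested 11 were higher in CJ7 and 7 lower, near the shares over all genes, with a median of 0.05. Usp29, a paternally expressed gene of the Peg3 domain, was 3.53 and 4.36 RPKM against 0.528, 0.552 and 0.615 (2.06 ± 0.16, limma adjusted p = 0.000846). Slc38a4, an amino acid transporter gene, was 160 and 118 against 49.6, 56.0 and 58.4 (1.32 ± 0.15, adjusted p = 0.0029). Sfmbt2, a Polycomb-related gene of the placenta, was 6.95 and 5.55 against 2.77, 2.99 and 2.75 (1.01 ± 0.14, adjusted p = 0.00576). These 3 were called whichever library was left out. Peg10, a retrotransposon-derived placental gene, was 1.40 and 2.49 against 8.85, 5.56 and 5.27 (-1.53 ± 0.30, adjusted p = 0.0158), lost without CJ7 replicate 1 (0.054). At the Dlk1-Dio3 domain the maternal RNA Meg3 was 9.55 and 5.06 against 3.24, 3.35 and 2.72 (1.06 ± 0.27, adjusted p = 0.034) while Dio3 was 0.579 and 1.83 against 4.65, 3.74 and 3.55 (-1.49 ± 0.34, adjusted p = 0.0257). The Meg3 call was lost without CJ7 replicate 1 (adjusted p = 0.0541) or any 1 CCE library (0.0859 to 0.104), and the Dio3 call without any 1 CCE library (0.0713 to 0.0821).

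Replication and mitosis genes leaned lower in CJ7, with 8 of 26 lower and 2 higher. Mcm7, a subunit of the replicative helicase, was 62.9 and 74.4 RPKM against 116, 108 and 111 (-0.70 ± 0.09, limma adjusted p = 0.00474), and Pcna, the polymerase clamp, was 88.2 and 98.6 against 143, 148 and 147 (-0.64 ± 0.08, adjusted p = 0.00332). The 2 higher genes were Top2a, on chromosome 11 (339 and 283 against 161, 168 and 169; 0.90 ± 0.10), and the checkpoint kinase gene Bub1 (76.7 and 73.6 against 39.9, 43.1 and 42.5; 0.84 ± 0.07). Chaperone genes split, with 4 higher and 6 lower of 21. Among p53 targets 5 were higher and 4 lower of 24: the cell cycle inhibitor gene Cdkn1a was 19.7 and 14.96 against 10.1, 8.23 and 10.1 (0.83 ± 0.16, adjusted p = 0.0149; lost without CCE replicate 2, 0.0519), and the cell death gene Bax was 103 and 104 against 177, 176 and 182 (-0.78 ± 0.06, adjusted p = 0.000814). Cholesterol synthesis genes had 2 higher and 5 lower of 23, glycolysis genes 2 and 3 of 28, and Nodal and BMP pathway genes 4 and 4 of 23. In lineage lists few genes were called: 2 higher and none lower of 10 primed epiblast genes, 3 and 1 of 20 extraembryonic endoderm genes, 0 and 1 of 12 mesoderm genes, 2 and 2 of 15 trophoblast genes and 1 and 1 of 22 Hox genes. Interferon response genes had 2 higher and 3 lower of 27, and antigen presentation genes 2 and 1 of 18. Wnt targets, which CHIR99021 acts on, had 1 higher and 2 lower of 13.

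Chromosome 11 stood apart from the other autosomes. Over its 1180 genes with a mean of at least 1 RPKM the median difference was 0.35, against -0.06 to 0.12 on the other 18 autosomes. On chromosome 11 38.5% of these genes were higher in CJ7 and 6.53% lower, while the other autosomes had 11.2% to 21.3% higher and 10.82% to 20.99% lower. The shift was broad, though 649 of the 1180 genes were not called. Examples well above the median, chosen after their values were seen, were Sar1b, Slc39a11 and Nfe2l1. Sar1b, a GTPase gene of vesicle transport, was 77.9 and 84.7 RPKM against 41.3, 40.1 and 41.3 (0.98 ± 0.07). The zinc transporter gene Slc39a11 was 38.7 and 39.8 against 18.7, 19.9 and 18.5 (1.02 ± 0.07), and the stress factor gene Nfe2l1 was 49.8 and 48.5 against 25.7, 24.3 and 25.5 (0.95 ± 0.07). The chromosome 11 median was 0.31 after correction for GC content and exon length and 0.30 with upper quartile scaling.

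**Figure D3:**
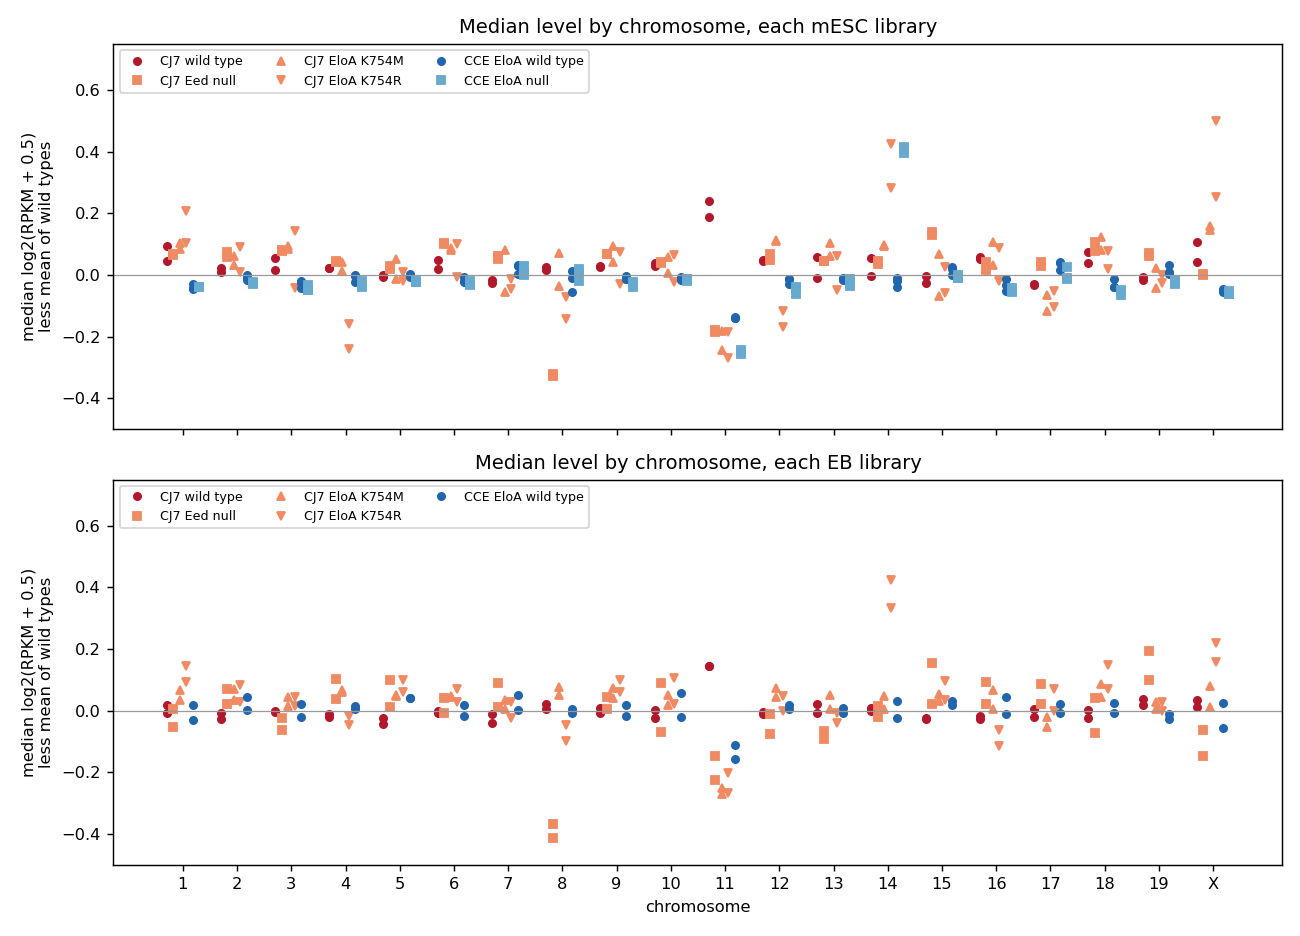
Median over the genes of each chromosome (x axis) of log2(RPKM + 0.5) less the mean of the wild type libraries (y axis), for each mESC library in the upper panel and each EB library in the lower panel; each point is a library. On chromosome 11 the wild type CJ7 libraries lie at 0.24 and 0.19 in mESCs and at 0.14 in EBs, above all other libraries, while Eed null CJ7 is low on chromosome 8, and K754R CJ7 and EloA null CCE are high on chromosome 14.

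The same shift was measured in the wild type CJ7 EBs and in no other CJ7 genotype. Relative to the mean of the wild type libraries of the stage, the chromosome 11 median was 0.24 and 0.19 in the wild type CJ7 mESC libraries and -0.14 in each wild type CCE library. It was between -0.27 and -0.18 in the 6 edited CJ7 mESC libraries and between -0.26 and -0.24 in the EloA null CCE libraries. In EBs it was 0.14 in both wild type CJ7 libraries, -0.16 and -0.11 in wild type CCE and between -0.27 and -0.15 in the edited CJ7 libraries. The median between wild type EBs was 0.28 on chromosome 11 and -0.08 to 0.04 on the other autosomes. Between edited CJ7 and EloA null CCE mESCs it was 0.06. DNA copy number was not measured. Genes on chromosome 11 named above, such as Suz12, Top2a, Pecam1, Hormad2 and Stc2, lie in this shift, and its part in their differences was not tested. Without chromosomes 11 and Y, 4938 genes were called (2558 higher and 2380 lower), so the balance moved towards lower calls. On the X chromosome the median was 0.13 over 531 genes, of which 26.9% were higher and 16.4% lower. After the GC and length correction the X median was 0.03, against -0.101 to 0.0 on autosomes other than 11. Over genes of at least 5 RPKM it was 0.09, within the -0.09 to 0.106 of those autosomes.

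Y-linked genes were expressed in both lines, at a higher level in wild type CJ7. Of 6 tested 5 were higher and none lower, each call held whichever library was left out, and the summed RPKM of the 9 listed genes was 107 and 97.3 in CJ7 against 49.7, 50.6 and 52.3 in CCE. Eif2s3y, a translation factor gene that supports spermatogonia, was 55.5 and 46.9 RPKM against 18.96, 20.7 and 20.9 (1.32 ± 0.10, limma adjusted p = 0.000719). Zfy1, a zinc finger factor, was 4.15 and 5.80 against 1.10, 0.983 and 1.23 (1.76 ± 0.19, adjusted p = 0.00242), and the histone demethylase gene Kdm5d was 1.37 and 1.43 against 0.370, 0.167 and 0.0937 (1.44 ± 0.22, adjusted p = 0.00745). Ddx3y, an RNA helicase, differed less: 33.5 and 33.0 against 23.5, 23.2 and 24.5 (0.48 ± 0.07, adjusted p = 0.0063). Uty did not pass the test (4.32 and 4.81 against 3.88, 3.65 and 3.86; 0.24 ± 0.12, adjusted p = 0.182). Xist, the RNA that silences an X chromosome in female cells, was between 1.52 and 2.07 RPKM in the 5 libraries (adjusted p = 0.296).

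**Figure D4:**
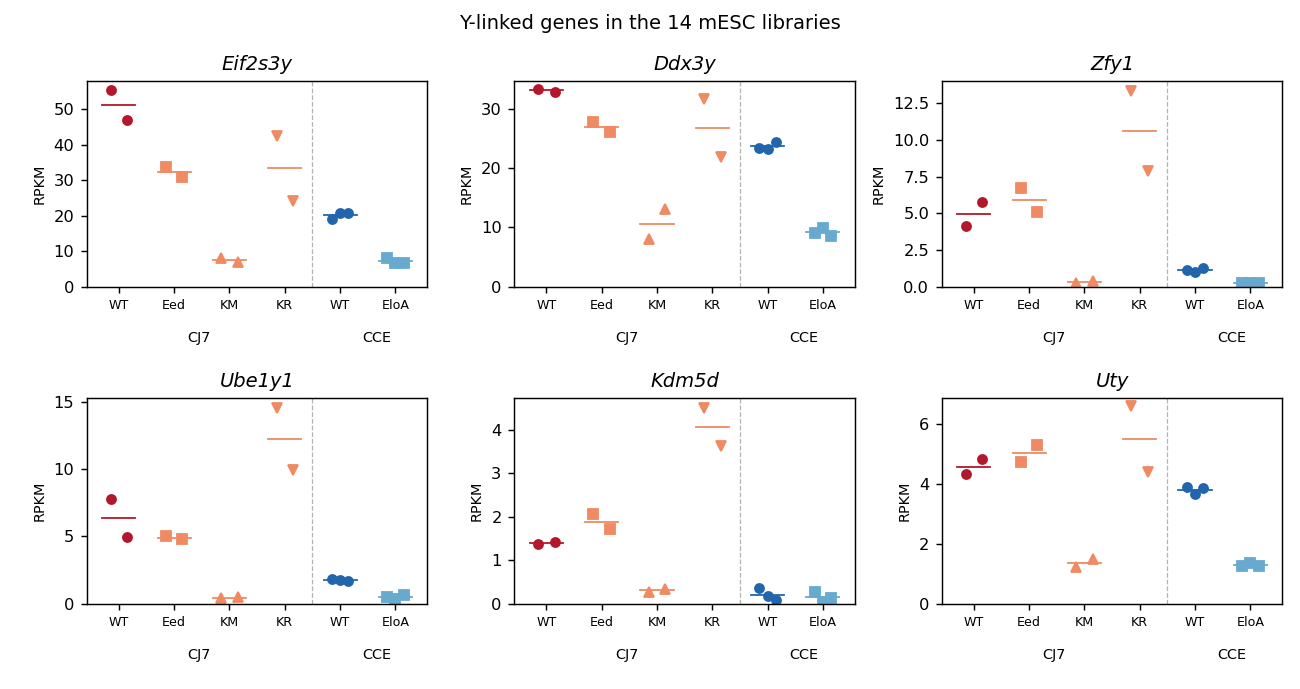
RPKM (y axis, linear, from 0) of 6 Y-linked genes in each of the 14 mESC libraries, by line and genotype as labelled on the x axis; each point is a library and each bar a group mean. Wild type CJ7 lies above wild type CCE in all 6 genes, while the K754M CJ7 and EloA null CCE libraries are lowest.

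The Y-linked level also varied within each line. The summed RPKM was 80.8 and 74.5 in Eed null CJ7, 18.5 and 22.8 in K754M, 116 and 73.5 in K754R and 17.7 to 19.4 in EloA null CCE. In wild type EBs it was 51.7 and 52.1 in CJ7 and 41.0 and 42.5 in CCE. The lines thus overlapped for all 6 genes once other genotypes were included, and whether cells of a culture had lost the Y chromosome was not measured.

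The same line contrast was then made in the other 9 mESC libraries, which share no library with the wild type contrast, although line and genotype cannot be told apart in it. Line cannot be told apart from depth or library preparation there either. Estimated depth was 11270000 to 18200000 reads in edited CJ7 and 24310000 to 34650000 in EloA null CCE. Small RNA genes made up 27.6% to 47.2% of all RPKM against 19.2% to 22.5%, and pseudogenes 4.33% to 6.65% against 11.6% to 12.2%. Between the 6 edited CJ7 and the 3 EloA null CCE libraries 5326 of 21121 genes were called (25.2%; 3083 or 14.6% higher and 2243 or 10.6% lower). Of the genes called between wild types 2817 were called in the same direction (1461 higher and 1356 lower) and 49 in the opposite one. Germline genes had a median of 1.06 there, but the edited CJ7 genotypes were unlike each other: summed germline RPKM was 1093 and 1043 in Eed null and 541 to 720 in the K754M and K754R libraries, against 498 to 522 in EloA null CCE. The summed RPKM of the 2-cell genes was 144 and 146 in Eed null, 3.69 to 6.34 in K754M and K754R and 42.5 to 145 in EloA null CCE. Without EloA null replicate 2 or 3 the total fell to 2793 or 2726, and without EloA null replicate 1 to 3381. It was 3519 or 3503 without Eed null replicate 1 or 2.

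In wild type EBs the line contrast has 2 libraries a side. No gene passed the limma test (0 of 17202; 2844 at an unadjusted p under 0.05; lowest adjusted p 0.0508). With a pseudocount of 1 RPKM in place of 0.5, 46 genes were called. Of 3273 protein coding genes called in mESCs and also tested in EBs, 62.4% had the same sign in EBs, and of all 11751 such genes tested at both stages 56.2% did. Across those 3273 genes the differences correlated at r = 0.23, a description over genes that are not independent and that include the chromosome 11 shift. Some line differences were present at both stages: Dppa3 was 2.79 and 2.25 RPKM in CJ7 EBs against 0.182 and 0.286 in CCE EBs, and Gpx2 was 3.31 and 1.90 against 0.486 and 0.0397. Gldc was 25.7 and 20.1 against 8.52 and 9.67. Adhesion genes had a median of 1.21 in EBs, and Ocln was 7.64 and 6.76 against 2.30 and 1.51. Others were near each other in EBs: Nes was 10.5 and 6.68 against 7.91 and 7.41, and Dmc1 was 0.641 and 0.738 against 0.664 and 0.774. Pou5f1, lower in CJ7 mESCs, was 47.9 and 50.2 RPKM in CJ7 EBs and 15.3 and 21.7 in CCE EBs, where naive and core pluripotency genes had medians of 0.62 and 0.71. Some lineage markers were also apart between the EB libraries of the lines, though none passed the test there, and others were not. Of 13 trophoblast genes tested in EBs 7 had positive and 6 negative differences (median 0.03). Cdx2 was 8.43 and 5.63 RPKM in CJ7 EBs and 54.4 and 33.9 in CCE EBs, Pdgfrb, a mesenchymal receptor gene, was 1.57 and 1.36 against 11.97 and 8.997, and Plac1, a trophoblast gene, was 1.07 and 0.887 against 8.61 and 5.98. Sox17, an endoderm factor gene, was 13.5 and 14.99 against 4.55 and 4.14. The endoderm gene Sox7 went the other way (0.39 and 0.14 against 1.37 and 1.85), and Gata4, Gata6 and Ttr overlapped. All 13 Hox genes tested in EBs had negative differences (median -0.99, against 0.006 over all genes). The summed RPKM of 38 Hox genes was 7.25 and 5.81 in CJ7 and 41.8 and 31.5 in CCE. A Hox gene near 0 in CJ7 could pass the filter through its CCE level alone, so this direction is set in part by the filter. The part of cell composition in the EB values was not tested.

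**Figure D5:**
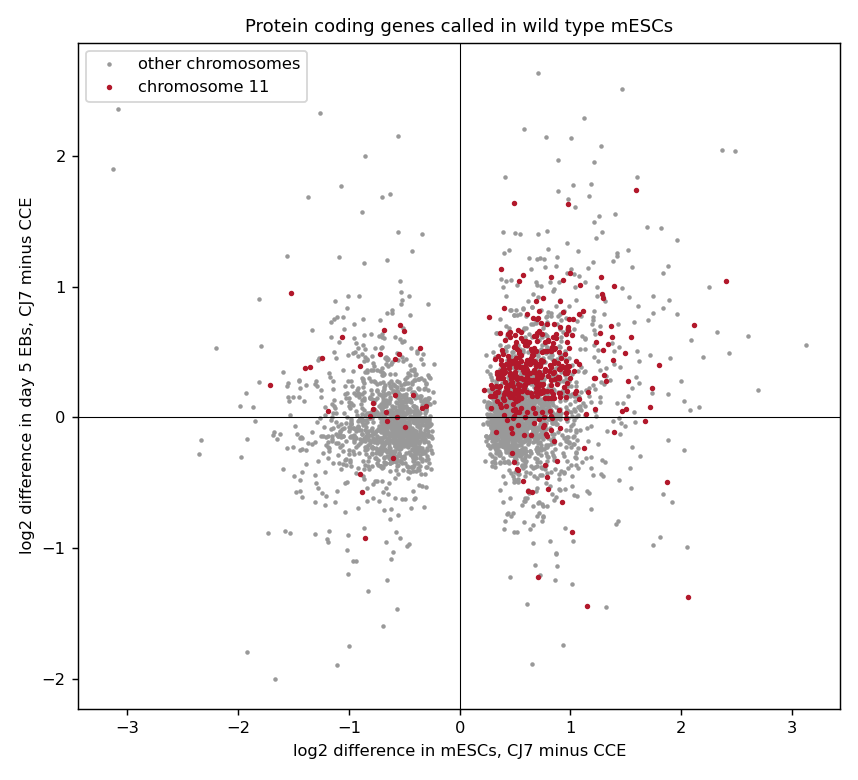
Log2 difference, CJ7 minus CCE, in wild type mESCs (x axis) and in wild type day 5 EBs (y axis) for the protein coding genes called in mESCs; each point is a gene, and genes of chromosome 11 are red. 62.4% of all points have the same sign on both axes.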

How the data were processed

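Each library has an RPKM value per gene, deposited as mESC and EB tables of 37583 genes; RPKM scales read counts by gene length and library size. Per the submitters' processing notes, CASAVA 1.7, STAR and the mm9 genome were used. The counting program, its annotation and strand setting, and how multiply mapped reads were treated: not given in the sources used here. Genes with at least 0.25 RPKM in 2 libraries were tested with limma-trend (limma 3.58.1, R 4.3.3) on log2(RPKM + 0.5), with Benjamini-Hochberg adjustment over all genes tested and a threshold of 0.05. The fit was tested on simulated data. A fold change on this scale understates the change of low genes. Gene class, chromosome, exon length and GC content came from GENCODE M21 by gene identifier (32860 found); 3730 rows share a name. Depth was estimated from the smallest step between low RPKM values and the exon length, and covers counting only. Python 3.11.15, pandas 2.3.3 and matplotlib 3.10.9 made tables and plots. Genes were named by rule: the 15 largest called differences each way at 1 RPKM or more with a name of their own (of which few are described), the 3 largest small RNA and pseudogene differences each way, up to 4 called members of each of 35 gene lists each way, and members of the pluripotency, Y-linked, X inactivation, DNA methylation, Polycomb and elongation lists. Genes outside it (among them the 12 largest each way without overlap, and further list members) were added after their values were seen. One list, of mitochondrial genome genes, had no row in the tables. The contrast, the lists and the tests were chosen with earlier results of these data known. Alternatives are given in the closing section. The 4 CCE EB libraries whose titles and column names disagree were not used. A further gene with opposite differences at the stages is not reported here.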

Additional observations from a re-analysis of the deposited data

Results flagged for a closer look

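Some genes differed between the lines in opposite directions in mESCs and EBs, with the CJ7 and CCE libraries apart at both stages. Log2 differences are CJ7 minus CCE, and the difference between stages was not tested, since the tables were normalized separately. With 2 EB libraries a line, libraries lie apart for many genes: of the 3273 protein coding genes called in mESCs and tested in EBs, 1114 were apart the same way in EBs and 583 the opposite way. The pluripotency genes Zfp42 (-0.87 and 1.18) and Dppa5a (-0.55 and 2.15) and the methyltransferase gene Dnmt3b (-1.08 and 1.23) were lower in CJ7 mESCs and higher in CJ7 EBs; other pluripotency genes were higher in CJ7 mESCs. The placental homeobox gene Rhox6 went from -1.26 to 2.33. Slc38a4, the imprinted amino acid transporter gene, was higher in CJ7 mESCs and lower in CJ7 EBs (1.32 and -1.45), as was the surface gene Pecam1 (1.15 and -1.45), which endothelial cells of EBs also express. The ribosomal protein copy Rpl10l (-0.70 and 1.18) and the small RNA gene mmu-mir-2134-4 (-7.23 and 2.37) can share reads with copies, so their values are uncertain.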

How the results depend on the processing

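Alternatives were 14 planned settings and, chosen after seeing the data, a fit restricted to the protein coding genes selected by name, one without chromosomes 11 and Y, a GC and length correction joined to the replicate block, and 2 rescalings of the chromosome medians. Leaving out 1 library gave 2625 to 6016 calls (1301 to 3031 higher, 1301 to 2985 lower), and in the contrast of edited lines 2726 to 7214 (1381 to 4376 higher, 1345 to 2838 lower). EB calls stayed at 0 in each such fit and rose to 46 with a pseudocount of 1 (28 higher, 18 lower). In the protein coding fit 1468 genes were lower in CJ7. Replicate numbers are not said to pair samples: deviations of equally numbered CJ7 and CCE libraries correlated at -0.25 and -0.18 in mESCs and at 0.36 in EBs. With the number as a replicate block 1510 mESC genes were called (685 higher, 825 lower), with the GC and length correction as well 1210 (538 and 672), and in EBs 977 (581 and 396). The chromosome 11 median was 0.34 to 0.37 with a library left out, 0.303 with upper quartile scaling and 0.31 with the GC and length correction. The X median was 0.09 at 5 RPKM, 0.085 with upper quartile scaling, 0.027 with the GC correction and 0.085 to 0.14 with a library left out. Medians of autosomes other than 11 spanned -0.09 to 0.106 at 5 RPKM, -0.106 to 0.069 with upper quartile scaling and -0.101 to 0.0 with the GC correction. The Y median of 1.32 became 0.898, 1.118 and 1.198 to 1.44 (at 5 RPKM, with the GC correction, with a library left out). Among named genes Rif1 alone changed sign (-0.003 with the GC and length correction and the replicate block). The cause of these changes was not tested beyond the fewer genes or libraries in each fit.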
